A study of Mus musculus with 2 samples.

Results

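Lysosome and autophagy genes were followed in RNA sequencing counts from mouse pancreatic islets. The 54 genes were chosen by name, as cathepsins, other lysosomal hydrolases, lysosomal membrane proteins and autophagy genes. They were chosen with earlier results of these data known, so the choice was not blind to the values. All 54 were among the 44713 genes of the deposited count table. The db/db library came from C57BL/6 mice labelled Lepr-/-, whose db mutation disrupts the long signalling form of the leptin receptor and which are widely used as a model of obesity and type 2 diabetes. The db/m library came from C57BL/6 mice that the labels call wild type. Neither age and sex nor the number of animals behind a library is stated in the labels. In both groups collagenase had released the islets and a density gradient had collected them, and total RNA was depleted of ribosomal RNA. There was 1 library per group, so no difference has a replicate check and no p-value is given. Each ratio below is db/db over db/m in counts scaled with TMM factors (a trimmed mean of gene ratios, edgeR), and its 95% interval covers counting error alone.

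Lysosomes are acidic compartments in which cathepsins, glycosidases and lipid-degrading enzymes break down material delivered by endocytosis and by autophagy. In autophagy a membrane closes around cytoplasm, a process started by the ULK kinase complex, extended through the conjugation of ATG8 proteins to lipid, and guided to its cargo by receptors such as p62 (Sqstm1). The transcription factors TFEB and TFE3 bind an E-box element near many lysosomal genes. In the pancreas, cathepsins B and L are known to act on trypsinogen in acinar cells, and autophagy is needed to maintain beta cells.

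The libraries held 16271129 counts (db/m) and 18233695 counts (db/db), and 1 count stood for 0.0653 and 0.0516 CPM (scaled counts relative to library size). Lepr had 4 counts in the db/m library and 3 in the db/db library, which says nothing on the genotype, since the db mutation alters splicing. Although the labels give islet cells, the 16 acinar marker genes took 59.8% of the db/m counts and 59.3% of the db/db counts, against 0.147% and 0.166% for 10 beta cell markers. Acinar markers summed to a ratio of 0.879 (95% interval 0.878 to 0.88), duct markers to 0.688 (0.663 to 0.713), endothelial markers to 0.709 (0.567 to 0.885) and beta cell markers to 1 (0.983 to 1.02), a sum led by Ins2 beside a median log2 ratio of -1.19. These sums depend on the scaling. As ratios of shares of all counts, without TMM factors, they were 0.992 (acinar), 0.776 (duct), 0.8 (endothelial) and 1.13 (beta cell). In these bulk samples, fewer cells of a type and less RNA per cell cannot be told apart. The part of these cell types in the ratios below was not tested.

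The promoters are shown first because the lysosomal genes have a known shared element, the E-box CACGTG, with TCACGTGA as its longer form. Both motifs read the same on either strand, and every TCACGTGA contains a CACGTG. RefSeq sequences (GRCm38.p6) of 250 bases before to 50 after a start were matched by symbol for 45 of the 54 genes, with 54 windows. CACGTG was in 13 of these 54 windows (24.1%), against 7.15% of all 32851 windows in the table. By gene, 13 of 45 members (28.9%) had it, against 8.09% of 27025 genes and 12.9% of the genes compared below. TCACGTGA was in 5 of 45 members (11.1%), against 1.12% of all genes and 2.48% of the genes compared. Of the lysosomal genes 10 of 29 held CACGTG, and of the autophagy genes 3 of 16. A match is a description of these letters and not a binding site.

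The 250 bases before the start follow for 6 genes, with each CACGTG or TCACGTGA in capitals. Gaa (chr11:119267713-119267962 on the plus strand) was among the highest ratios. Ctsd (chr7:142387828-142388077 on the minus strand) and Mcoln1 (chr8:3500269-3500518 on the plus strand) hold the longer form and had ratios above 1. Lamp1 (chr8:13158911-13159160 on the plus strand) holds CACGTG 4 times and Gla (chrX:134601006-134601255 on the minus strand) the longer form 2 times, and with TMM scaling neither had an interval that excludes 1. Ctsc (chr7:88277835-88278084 on the plus strand) was lower in the db/db library and holds neither motif. It does not stand for all members without a motif. Ppt1 (ratio 1.57), Gm2a (1.49) and Hexa (1.42) hold neither motif and had ratios above 1.
Gaa: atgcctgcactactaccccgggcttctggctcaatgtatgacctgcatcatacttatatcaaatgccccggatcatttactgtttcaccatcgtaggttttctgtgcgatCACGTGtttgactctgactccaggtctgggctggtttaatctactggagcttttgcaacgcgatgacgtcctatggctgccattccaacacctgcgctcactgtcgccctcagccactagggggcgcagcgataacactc
Ctsd: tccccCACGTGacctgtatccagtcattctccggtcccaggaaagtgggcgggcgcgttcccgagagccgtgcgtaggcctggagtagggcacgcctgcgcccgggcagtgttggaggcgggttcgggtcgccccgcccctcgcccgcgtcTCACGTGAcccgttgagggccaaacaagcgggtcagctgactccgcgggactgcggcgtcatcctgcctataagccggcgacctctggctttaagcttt
Mcoln1: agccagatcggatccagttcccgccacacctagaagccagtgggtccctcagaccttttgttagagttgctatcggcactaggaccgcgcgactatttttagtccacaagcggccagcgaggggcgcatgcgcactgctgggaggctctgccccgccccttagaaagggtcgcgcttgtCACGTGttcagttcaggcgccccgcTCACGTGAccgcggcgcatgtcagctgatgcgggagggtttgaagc
Lamp1: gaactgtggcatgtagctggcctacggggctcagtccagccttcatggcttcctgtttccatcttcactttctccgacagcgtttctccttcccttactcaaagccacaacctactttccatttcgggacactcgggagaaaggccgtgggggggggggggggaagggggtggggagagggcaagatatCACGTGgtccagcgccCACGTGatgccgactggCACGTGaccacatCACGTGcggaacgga
Gla: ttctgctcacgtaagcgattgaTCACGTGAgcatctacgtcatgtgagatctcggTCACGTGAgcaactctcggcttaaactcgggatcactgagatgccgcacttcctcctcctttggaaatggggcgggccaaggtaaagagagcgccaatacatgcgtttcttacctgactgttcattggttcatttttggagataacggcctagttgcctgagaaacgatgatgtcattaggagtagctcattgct
Ctsc: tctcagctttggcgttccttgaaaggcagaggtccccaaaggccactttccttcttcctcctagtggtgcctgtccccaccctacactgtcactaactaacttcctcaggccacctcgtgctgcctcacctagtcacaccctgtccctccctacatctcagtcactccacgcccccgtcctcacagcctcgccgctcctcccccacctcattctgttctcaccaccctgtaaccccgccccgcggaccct

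Members with CACGTG did not have the higher median ratio. The median log2 ratio was 0.15 for the 12 compared members with CACGTG and 0.22 for the 30 without it. For TCACGTGA the 5 members with it had a median of 0.50, against 0.19 for the 37 without. Among these 5, Ctsd stood at 1.45, Ctsa at 1.42 and Mcoln1 at 1.42, whereas Atg3 was at 0.948 and Gla at 0.896. Over all compared genes the medians were 0.03 for 185 genes with TCACGTGA and 0.03 for 7266 without it.

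Across the members, the lysosomal enzymes leaned towards the db/db library, while the autophagy genes lay near the middle of all genes. A mean of at least 1 CPM was reached by 50 of the 54 members, and by 10300 genes of the table, which are the genes compared. No compared member was 2-fold higher or 2-fold lower with an interval excluding 1, where 3.83% and 4.04% of all compared genes were. At a limit of 1.5-fold, 3 of 50 were higher (Gaa, Ppt1 and Ctsb), against 8.63% of all genes, and 2 were lower (Ctsc and Npc1), against 8.87%. With TMM scaling these shares are near or below the background. They depend on the scaling, so nothing is read from them. The interval lay above 1 for 21 of 50 members, against 20.7% of all genes, and below 1 for 6, against 18.2%. Most compared members had a mean of at least 10 CPM, against 4148 of the 10300 genes. Higher counts narrow the interval, and these shares are not matched for depth. The 20.7% and 18.2% are also the background for the intervals of the classes, role groups and lists below, with the same limit.

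A ratio above 1 was found for 52.4% of all compared genes (5401 of 10300). By class, 24 of 31 compared lysosomal genes had a ratio above 1, and 17 had an interval above 1 and 2 below. Of 19 compared autophagy genes 11 had a ratio above 1, and 4 had an interval above 1 and 4 below. The median log2 ratio was 0.29 for the lysosomal genes, 0.06 for the autophagy genes and 0.02 for all genes, of which the middle 50 percent spanned -0.26 to 0.29. Over all 54 genes, the summed counts of the 34 lysosomal genes had a ratio of 1.21 (1.19 to 1.24), and those of the 20 autophagy genes 1.03 (1.003 to 1.06). The lysosomal genes took 60% of the members' counts in the db/m library (59.3% to 60.6%) and 63.8% in the db/db library (63.3% to 64.3%), a share that does not depend on the scaling. Whether the classes differ between genotypes cannot be tested with these libraries.

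**Figure D1:**
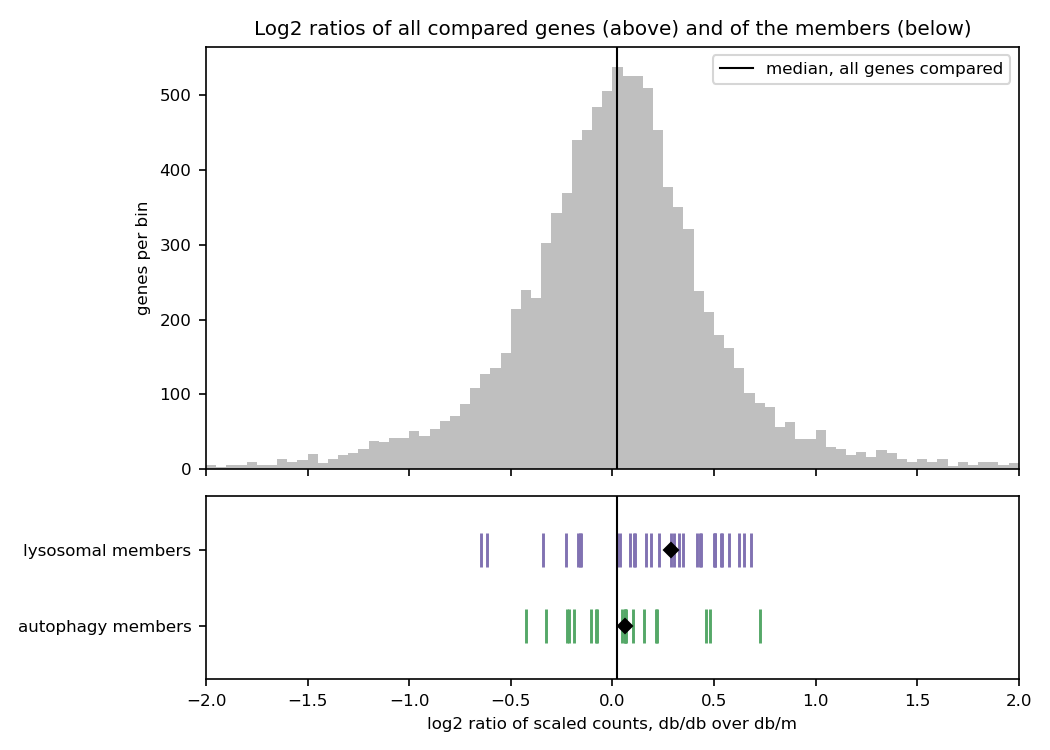
Log2 ratio of scaled counts (db/db over db/m, horizontal axis) for the genes with at least 1 CPM, as a histogram of genes per bin (above, 154 genes beyond 2 in either direction are outside the axis), and for each compared member as a tick (below), with diamonds at the medians and a vertical line at the median of all genes. The lysosomal members have their median at 0.29 and the autophagy members at 0.06, and both lie inside the bulk of the histogram.

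The scaling matters for differences of this size. With total counts every log2 ratio was larger by 0.18, and with total counts without the acinar markers by 0.16. At 1.5-fold, 15 of the 50 members were then higher and 0 lower with total counts (all genes 15.2% higher and 5.49% lower). Without the acinar markers 14 of 50 were higher and 0 lower (all genes 14.5% and 5.74%), in place of 3 and 2. The share of members called higher thus lay above that of all genes under these scalings, again not matched for depth. With total counts the interval lay above 1 for 27 of 50 members and below 1 for 2 (all genes 35.2% and 9.85%). The gap between the median of the lysosomal members and that of all genes was 0.27 on the log2 scale, and a change of scaling moves both medians equally.

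**Figure D2:**
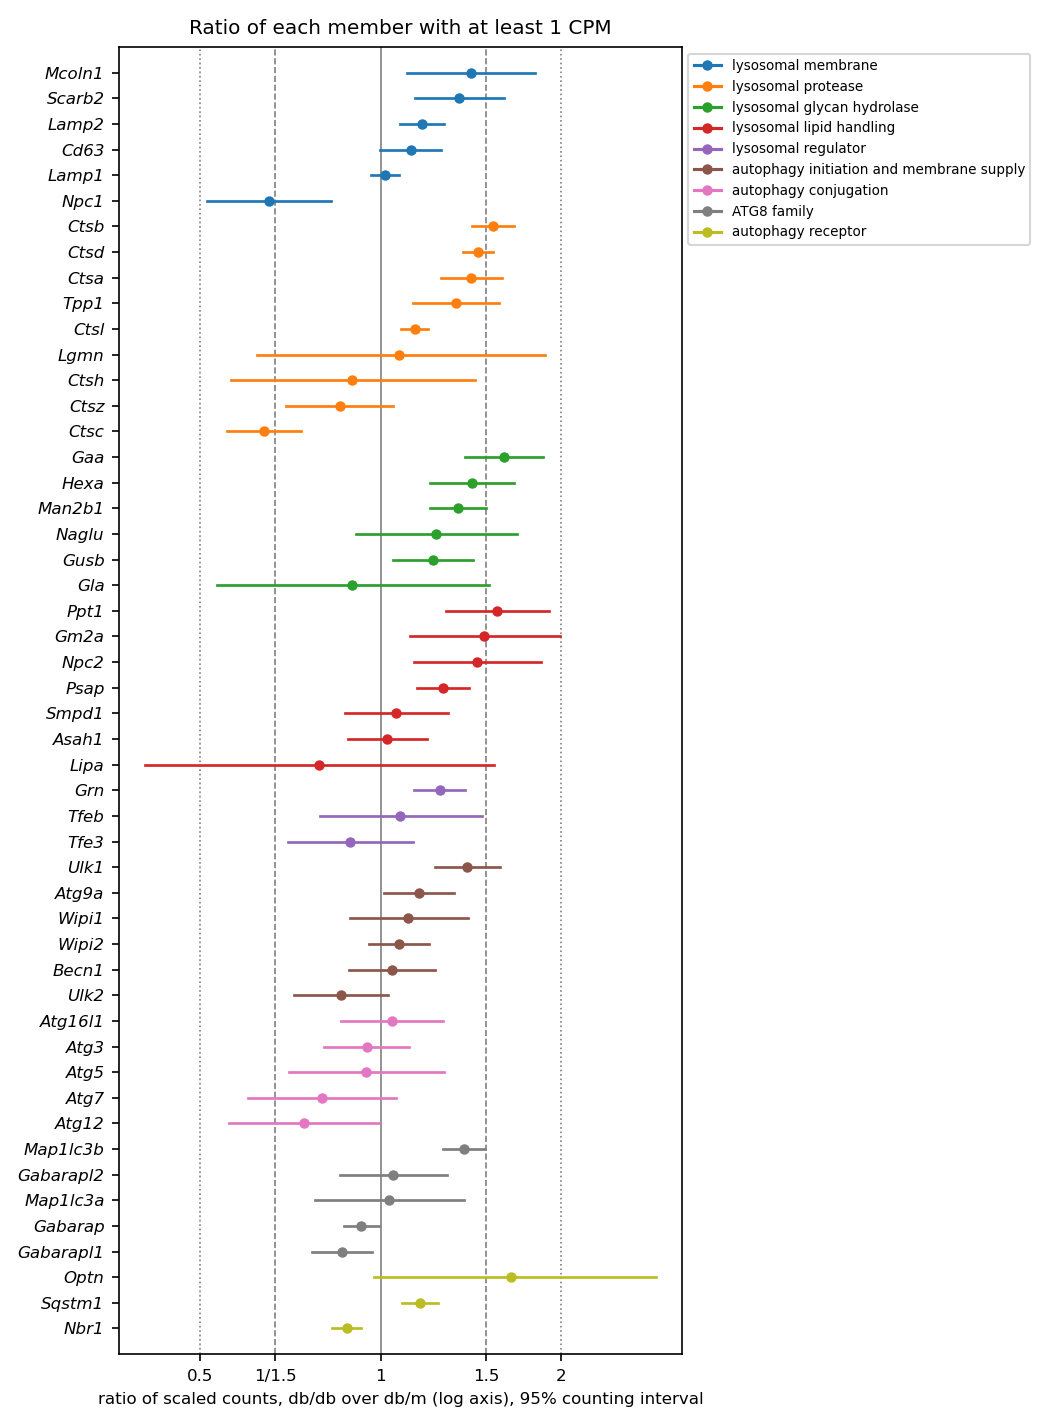
Ratio of scaled counts, db/db over db/m (horizontal axis, logarithmic), with its 95% counting interval for the 50 members with at least 1 CPM, coloured by role. The solid line marks 1, dashed lines 1.5-fold and dotted lines 2-fold in either direction. The points of Gaa, Ppt1, Ctsb and Optn lie beyond 1.5 on the right, Ctsc and Npc1 beyond it on the left, and none beyond 2.

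Among the 6 membrane proteins, 3 intervals lay above 1 and 1 below (all genes 20.7% and 18.2%). Lamp1 and Lamp2 are the most abundant glycoproteins of the lysosomal membrane. Lamp1 had 2422 counts in the db/m library and 3115 in the db/db library, which are 158 and 161 CPM and a ratio of 1.02 (0.964 to 1.07). Lamp2 stood at 58.6 and 68.7 CPM, a ratio of 1.17 (1.08 to 1.28). The interval of Lamp1 includes 1 with this scaling but not with total counts, where its ratio was 1.15 (1.09 to 1.21), nor with total counts without acinar markers, 1.13 (1.08 to 1.2).

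Scarb2, which carries beta-glucocerebrosidase to lysosomes, had 219 and 375 counts and a ratio of 1.35 (1.14 to 1.61). Mcoln1, the lysosomal calcium channel, had 105 and 188 counts and a ratio of 1.42 (1.11 to 1.81). The tetraspanin Cd63 was at 1.12 (0.998 to 1.26), and at 1.27 (1.13 to 1.43) with total counts, where the interval excludes 1. Npc1, which exports cholesterol from the lysosome, went the other way, with 159 counts in the db/m library and 131 in the db/db library, 1.54-fold lower (1.21 to 1.95). Its soluble partner Npc2, which hands cholesterol to Npc1, had 106 and 194 counts and a ratio of 1.45 (1.14 to 1.85). Within each library, Npc2 counts were 0.667 of the Npc1 counts in db/m and 1.48 in db/db, a ratio of 2.22 (exact interval 1.57 to 3.14) that needs no scaling. The Npc1 span overlaps that of Rmc1 in RefSeq, and the use of strand in counting is not given, so its value is uncertain. With total counts the Npc1 ratio was 0.735 and no longer passed 1.5-fold.

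**Figure D3:**
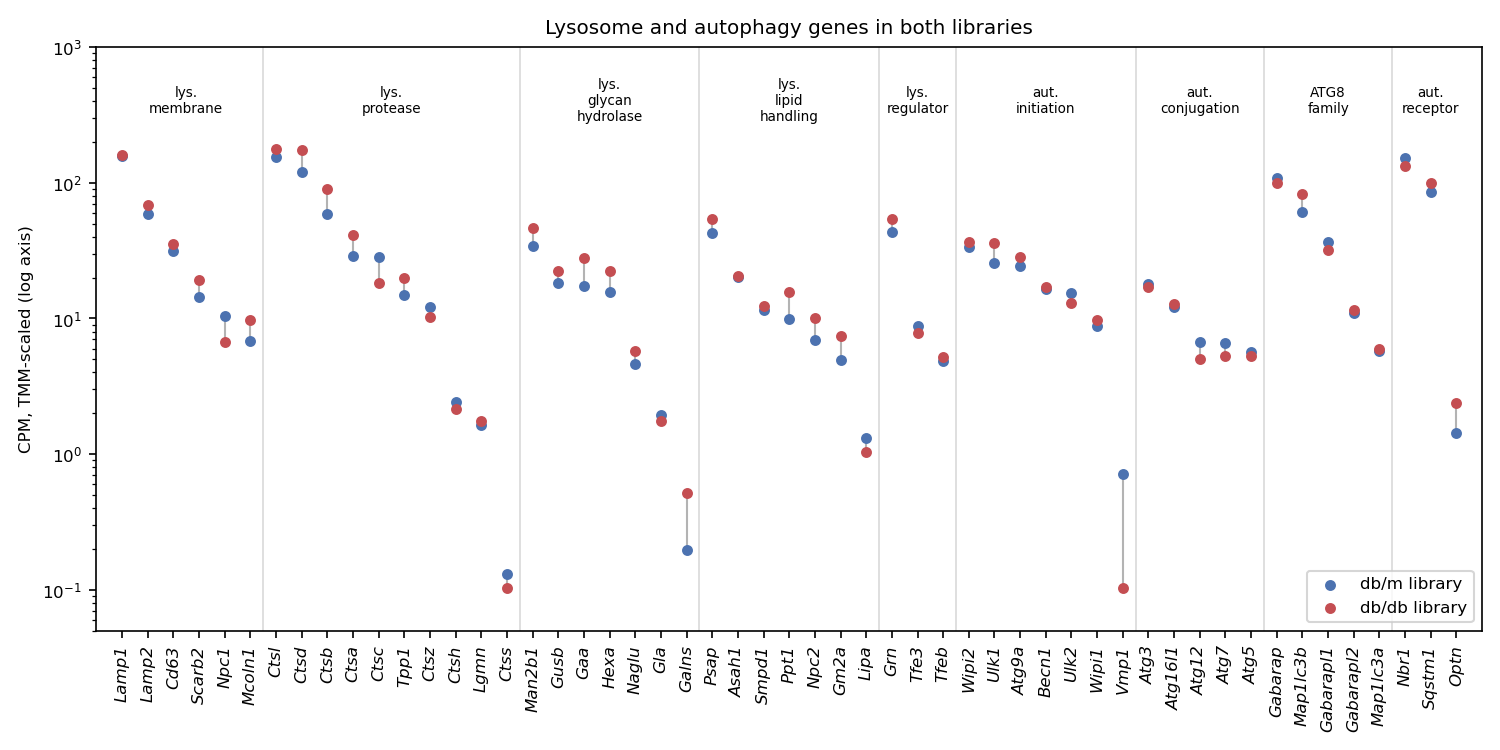
CPM scaled by TMM (vertical axis, logarithmic) of 53 members in the db/m (blue) and db/db (red) libraries, 1 point per library, ordered by role; Glb1, with 0 counts in both, is left out. The 2 points of a gene mostly lie close together, with Vmp1 and Galns apart at under 1 CPM.

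Among the proteases, the cathepsins with most counts did not share a single ratio. Cathepsin B (Ctsb, chromosome 14, 63122462 to 63145923), a cysteine protease that activates trypsinogen, had 900 counts in the db/m library and 1755 in the db/db library, which are 58.8 and 90.6 CPM. Its ratio of 1.54 (1.42 to 1.67) was the highest of the proteases. Cathepsin D (Ctsd), an aspartic protease, had 1837 and 3376 counts and a ratio of 1.45 (1.37 to 1.54). The carboxypeptidase Ctsa was at 1.42 (1.26 to 1.6) and the tripeptidyl peptidase Tpp1 at 1.34 (1.13 to 1.58). Cathepsin L (Ctsl), which degrades trypsinogen, differed less, with 2387 and 3444 counts and a ratio of 1.14 (1.08 to 1.2). Within a library, Ctsb counts were 0.377 of the Ctsl counts in db/m and 0.51 in db/db, a ratio of 1.35 (exact interval 1.23 to 1.49). The Ctsb span overlaps that of Fdft1 by 774 bases, a gene with 166 and 227 counts.

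Cathepsin C (Ctsc, chromosome 7, 88278024 to 88315861), a dipeptidyl peptidase that activates granule serine proteases of immune cells, was lower in the db/db library. It had 438 counts in the db/m library and 354 in the db/db library, 28.6 and 18.3 CPM, which is 1.57-fold lower (1.36 to 1.81). Ctsc took 6.76% of the protease counts in the db/m library (6.16% to 7.39%) and 3.41% in the db/db library (3.07% to 3.77%). With total counts its ratio was 0.721 (0.625 to 0.832), which excludes 1 but does not pass 1.5-fold. Ctsz at 0.854 (0.696 to 1.05), Ctsh at 0.897 (0.563 to 1.43) and the asparaginyl endopeptidase Lgmn at 1.07 (0.623 to 1.88) had intervals that include 1.

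Cathepsin S (Ctss), a protease of antigen-presenting cells, had 2 counts in each library. Macrophages are rich in lysosomes, so their markers are given here. Their 15 markers in the table summed to 106 counts in the db/m library and 182 in the db/db library, which are 6.92 and 9.39 CPM and a ratio of 1.36 (1.06 to 1.74). Aif1 and Tyrobp were at 0 in both libraries, 4 markers were at 0 in each library, and Cd68, a macrophage lysosomal protein, had 12 and 2 counts. In the other direction, the lysozyme gene Lyz2 had 33 and 95 counts, a ratio of 2.28 (1.52 to 3.49), and Csf1r, the receptor for macrophage growth factor, had 3 and 18 counts, a ratio of 4.74 (1.38 to 25.1). As a ratio of shares of all counts, without TMM factors, the sum of the 15 markers was 1.53. Lyz2 alone stood at 2.16 CPM in db/m and 4.9 CPM in db/db with TMM scaling. With this scaling the sum of the other markers was not higher in db/db. The direction of so small a difference depends on the scaling, so nothing is read from it. The part of macrophages in the ratios of the members was not tested.

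**Figure D4:**
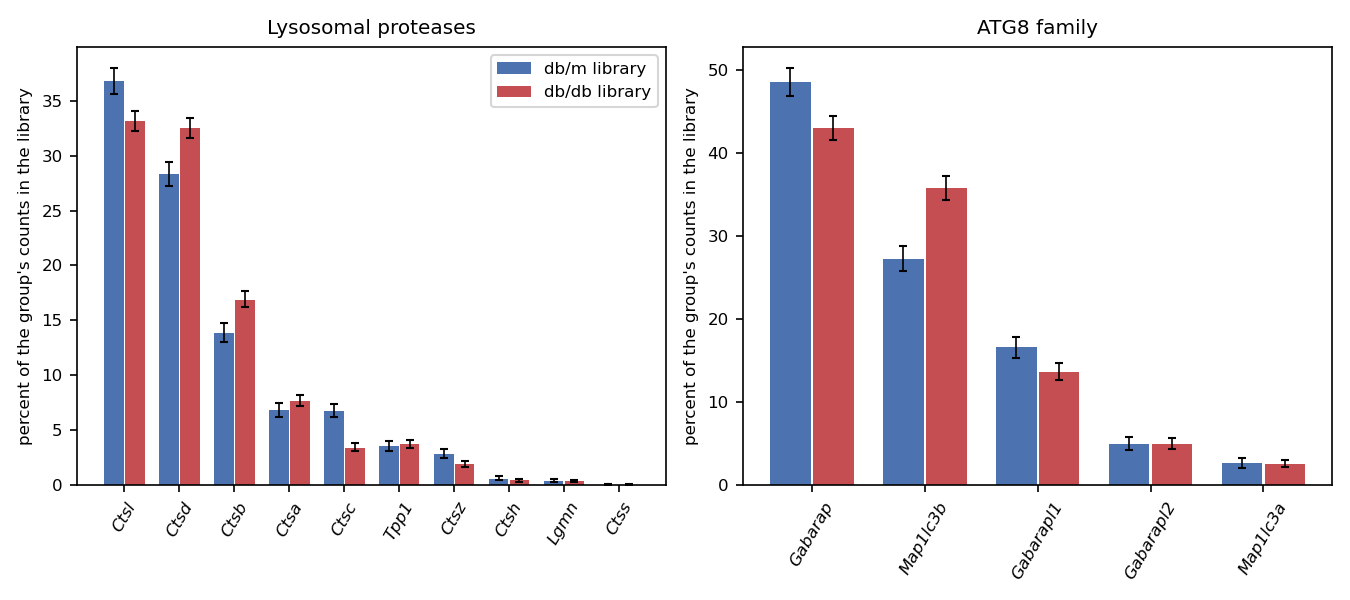
Share of each gene in the counts of the lysosomal proteases (left) and of the ATG8 family (right), in percent of the group's counts within a library (vertical axis from 0), for the db/m (blue) and db/db (red) libraries; error bars are 95% exact binomial intervals. Ctsc has 6.76% of the protease counts in db/m and 3.41% in db/db, and Map1lc3b 27.3% and 35.8% of the ATG8 counts.

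Among 6 compared genes for enzymes that degrade glycans, 5 had a ratio above 1, against 52.4% of all compared genes. The interval lay above 1 for 4 and below 1 for none (all genes 20.7% and 18.2%, not matched for depth). Acid alpha-glucosidase (Gaa, chromosome 11, 119267963 to 119285458), which degrades glycogen in lysosomes, had 266 counts in the db/m library and 540 in the db/db library, 17.4 and 27.9 CPM. Its ratio of 1.6 (1.38 to 1.87) was the largest among the members with an interval excluding 1. The hexosaminidase subunit Hexa was at 1.42 (1.21 to 1.67), the alpha-mannosidase Man2b1 at 1.35 (1.21 to 1.5) and the beta-glucuronidase Gusb at 1.22 (1.05 to 1.43). Naglu, with 71 and 111 counts, and the alpha-galactosidase gene Gla, with 30 and 34, had intervals including 1. The summed counts of the 8 genes had a ratio of 1.37 (1.28 to 1.46), the largest sum ratio of the 9 role groups.

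The remaining pair of this role lay under the filter. The sulfatase gene Galns had 3 counts in the db/m library and 10 in the db/db library, a ratio of 2.63 (0.678 to 14.9). Beta-galactosidase (Glb1, chromosome 9, 114401078 to 114474379) had 0 counts in both, which allows levels of up to 0.196 CPM in db/m and 0.155 CPM in db/db at 3 counts per library. Tmppe, whose span of 10107 bases lies wholly inside Glb1 in RefSeq, had 138 and 171 counts. The sources used here do not say how reads shared by overlapping genes were treated, and a count of 0 does not show that Glb1 was absent.

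Genes for lipid degradation and transport had 4 of 7 intervals above 1 and none below (all genes 20.7% and 18.2%). Palmitoyl-protein thioesterase (Ppt1, chromosome 4, 122836077 to 122859175), which removes fatty acids from proteins, had 152 and 301 counts, 9.93 and 15.5 CPM, and a ratio of 1.57 (1.28 to 1.91). The GM2 activator Gm2a, the cofactor of Hexa, had 76 and 143 counts and a ratio of 1.49 (1.12 to 1.99). Prosaposin (Psap), the precursor of the saposins that assist sphingolipid hydrolases, had 656 and 1055 counts and a ratio of 1.27 (1.15 to 1.4). Ceramidase (Asah1, 1.03, 0.882 to 1.2) and sphingomyelinase (Smpd1, 1.06, 0.871 to 1.3), which act on the sphingolipids themselves, were close to 1. Acid lipase (Lipa) had 20 counts in each library, too few to place its ratio better than between 0.404 and 1.55. The Ppt1 span overlaps that of Cap1 by 128 bases.

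Among the 3 regulators of lysosomal genes, the transcription factor genes Tfeb and Tfe3 had intervals that include 1, and Grn did not. Tfeb had 74 and 101 counts and a ratio of 1.08 (0.791 to 1.48), and Tfe3 had 135 and 152 counts and a ratio of 0.89 (0.701 to 1.13). Differences smaller than these intervals were not detectable at this depth, and transcript counts do not show where in the cell the proteins are. Progranulin (Grn), a secreted protein that supports lysosomal enzymes, had 662 and 1051 counts and a ratio of 1.25 (1.14 to 1.39). The summed counts of the 3 genes had a ratio of 1.18 (1.09 to 1.29).

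Of the genes that start autophagy and supply its membrane, Ulk1 had the highest ratio. This kinase gene had 395 counts in the db/m library and 698 in the db/db library, 25.8 and 36 CPM, a ratio of 1.4 (1.23 to 1.58). Its relative Ulk2 had 234 and 254 counts and a ratio of 0.858 (0.715 to 1.03). The Ulk1 to Ulk2 count ratio was 1.69 in db/m and 2.75 in db/db, a difference of 1.63-fold (exact interval 1.3 to 2.03). Atg9a, the membrane protein that seeds the phagophore, was at 1.16 (1.01 to 1.33). Becn1 at 1.04 (0.884 to 1.23), Wipi1 at 1.11 (0.887 to 1.4) and Wipi2 at 1.07 (0.958 to 1.21) had intervals including 1.

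Vmp1 encodes a membrane protein of the endoplasmic reticulum that acts early in autophagy and is known from pancreatic acinar cells in pancreatitis. It had 11 counts in the db/m library and 2 in the db/db library, 0.718 and 0.103 CPM, a ratio of 0.144 (0.0155 to 0.658). It lay under the filter of 1 CPM and was therefore not compared. Its span (chromosome 11, 86583858 to 86683836) holds Mir21a and 3 other RefSeq genes, and reads in such overlaps are uncertain.

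The conjugation genes, whose products attach ATG8 proteins to the membrane lipid, had 1 of 5 intervals below 1 and none above. For all compared genes these shares were 18.2% and 20.7%. Atg3 (275 and 330 counts, ratio 0.948), Atg5 (86 and 103 counts, 0.947), Atg7 (101 and 102 counts, 0.798) and Atg16l1 (187 and 247 counts, 1.04) had intervals including 1. Atg12 had 103 and 97 counts and a ratio of 0.744 (0.558 to 0.992), a bound so close to 1 that it was lost with total counts. Their summed counts had a ratio of 0.924 (0.837 to 1.02). With total counts Atg3 and Atg5 both stood at 1.07, on the other side of 1.

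The ATG8 proteins coat the autophagosome and fall into the LC3 and GABARAP branches. Map1lc3b, the gene of the LC3 form most used as an autophagy marker, had 925 counts in the db/m library and 1612 in the db/db library, 60.4 and 83.2 CPM, a ratio of 1.38 (1.27 to 1.5). Gabarap had 1650 and 1938 counts, 107.8 and 100.03 CPM, a ratio of 0.928 (0.869 to 0.992) that was 1.05 with total counts. Gabarapl1 had 563 and 614 counts and a ratio of 0.862 (0.768 to 0.968), which was 0.973 with an interval including 1 under total counts. Gabarapl2 (168 and 223 counts) and Map1lc3a (88 and 115 counts) had ratios of 1.05 and 1.03, with intervals including 1.

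Within the family, Map1lc3b took 27.3% of the counts in the db/m library (25.8% to 28.8%) and 35.8% in the db/db library (34.4% to 37.2%). The share of Gabarap was 48.6% (46.9% to 50.3%) in db/m and 43% (41.6% to 44.5%) in db/db, and that of Gabarapl1 was 16.6% (15.4% to 17.9%) and 13.6% (12.6% to 14.7%). Gabarapl2 was at 4.95% in both libraries, and Map1lc3a at 2.59% and 2.55%. These are shares of counts and not of transcripts, since lengths were not used. The shares of 3 of the 5 genes thus differed by more than counting error, with no replicate to show how much they vary between animals. Within a fixed total, a larger share of Map1lc3b lowers the other shares. The lower shares of Gabarap and Gabarapl1 are therefore not independent of it. The Map1lc3b span overlaps that of Zcchc14 by 64 bases.

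Cargo receptors link ubiquitinated material to ATG8 proteins. Sqstm1 (p62) had 1318 and 1940 counts, 86.1 and 100.1 CPM, a ratio of 1.16 (1.08 to 1.25). Nbr1 had 2317 and 2573 counts, 151 and 133 CPM, a ratio of 0.878 (0.829 to 0.929) that moved to 0.991 with total counts, where the interval includes 1. Sqstm1 counts were 0.569 of Nbr1 counts in db/m and 0.754 in db/db, a 1.33-fold difference (exact interval 1.21 to 1.45). Optn had 22 and 46 counts, and its ratio of 1.65 (0.974 to 2.88) did not exclude 1 with TMM scaling. With total counts it was 1.87 (1.1 to 3.26), which excludes 1, so this depends on the scaling. The pairs of genes set against each other within a library were chosen after their values were seen.

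Of 123 symbols for other genes of the pathway in 7 lists, 120 were in the table and 112 were compared. These lists too were chosen with earlier results of these data known. Fam134b and Retreg1 in these lists name the same gene, which was found as Fam134b. At 2-fold, 2 were higher and 0 lower, where 3.83% and 4.04% of all compared genes were. At 1.5-fold, 12 were higher and 3 lower, against 8.63% and 8.87% of all genes, so the higher calls were near the background. The median log2 ratio was 0.17. Abcb9, a lysosomal peptide transporter, had 45 and 127 counts and a ratio of 2.23 (1.58 to 3.21). Atg10, an enzyme that helps to join Atg12 to Atg5, had 8 and 28 counts and a ratio of 2.77 (1.23 to 7.02).

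The list of mTORC1 and Ragulator genes holds parts and activators of mTORC1 together with inhibitors such as Tsc1, Tsc2 and Depdc5. In this list 17 of 18 ratios were above 1, against 52.4% of all compared genes. Its median log2 ratio was 0.41, and 5 genes were 1.5-fold higher (8.63% of all genes) and 0 lower (8.87%). Rragd, a GTPase that recruits mTORC1, had 335 and 667 counts and a ratio of 1.57 (1.38 to 1.8). Fnip2, a partner of folliculin, had 650 and 1253 counts and a ratio of 1.52 (1.38 to 1.68). The remaining 3 past 1.5-fold were Lamtor1, Lamtor2 and Mtor. Rraga was the gene below 1, at 0.775 (0.635 to 0.946). Akt1s1 lay under the filter and was not compared, with 21 and 7 counts and a ratio of 0.263 (0.0946 to 0.643).

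Among 15 compared subunits of the V-ATPase, the proton pump that acidifies lysosomes, 12 had ratios above 1, with a median of 0.17. Their intervals lay above 1 for 5 and below 1 for 0 (all genes 20.7% and 18.2%). Atp6v0d1 stood at 1.3 (1.13 to 1.49) and Atp6v1b2 at 1.27 (1.08 to 1.49). Of 19 other lysosomal enzymes 6 intervals lay above 1 and 1 below, with a median of 0.25. Ids, which degrades heparan and dermatan sulfate, was at 1.49 (1.26 to 1.75) and the sialidase Neu1 at 1.35 (1.09 to 1.67). The 10 other membrane proteins had a median of 0.10, with the cystine transporter Ctns at 1.7 (1.36 to 2.14) and Laptm4a at 1.29 (1.15 to 1.44). The 11 genes that sort enzymes to the lysosome had a median of 0.17, with Gga3, an adaptor for the mannose 6-phosphate receptors, at 1.66 (1.34 to 2.07) and Gnptg at 1.24 (1.06 to 1.46).

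The further autophagy genes lay at the level of all genes. The 24 core genes had a median of 0.03, with 6 intervals above 1 and 4 below. Wdr45b and the protease gene Atg4b, which trims ATG8 proteins, were both at 1.29, with intervals of 1.07 to 1.56. The 15 other selective receptors had a median of 0.02, with 4 intervals above 1 and 5 below. Among these, Rtn3 was at 1.43 (1.32 to 1.55) and Fam134b at 0.722 (0.626 to 0.832), both receptors for autophagy of the endoplasmic reticulum.

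**Figure D5:**
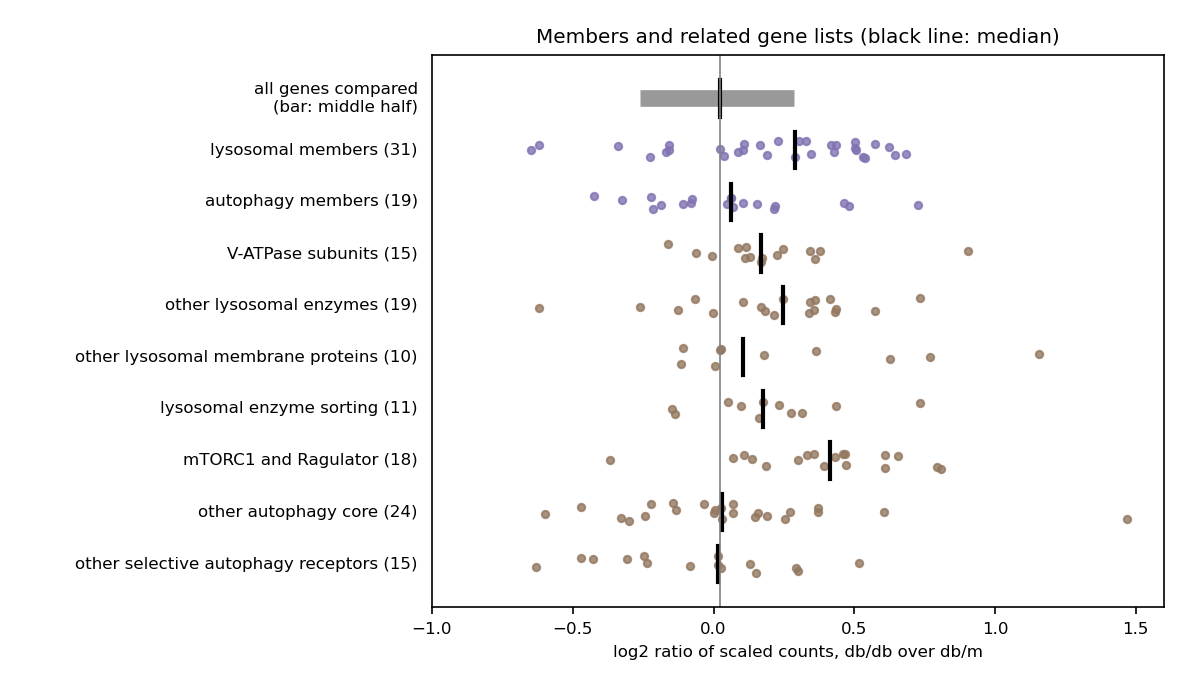
Log2 ratio of scaled counts, db/db over db/m (horizontal axis), for each compared gene (points, spread vertically at random) of the member classes and of 7 related lists, with the number of genes in brackets, a black line at each median and a grey bar for the middle 50 percent of all compared genes. The mTORC1 and Ragulator list has its median at 0.41 and the lysosomal members at 0.29, while the autophagy lists lie at 0.06, 0.03 and 0.02.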

How the data were processed

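RNA came from collagenase-isolated islets and was depleted of ribosomal RNA, per the labels' protocols. HISAT2 2.0.4 and the builds mm10 and GRCm38 are named in the submitters' processing notes; the sources used here do not give the counting program, annotation or strand setting. The authors deposited whole-number counts per gene, 1 column per library. Counts were scaled with TMM (edgeR 4.0.16, R 4.3.3); with 1 library per group, edgeR's quasi-likelihood test could not be fitted. Ratios have exact Clopper-Pearson intervals (95%), and ratios of 2 genes within a library exact conditional ones (Python 3.11.15, scipy 1.17.1). Genes with a mean unscaled CPM of at least 1 were compared, and called at 2-fold or 1.5-fold with an interval excluding 1. PCR copies are not independent molecules, so intervals cover counting error only. Scripts were tested on simulated data. The members and lists were chosen with earlier results of these data known. Named are all members and, per related list, genes past 2-fold and the 2 largest log2 ratios at 10 CPM or more; other names were chosen after their values were seen. Alternatives were 3 other scalings (DESeq2 1.42.0 among them), 2 filters and 2 stricter intervals. Spans and promoters are from RefSeq GRCm38.p6.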

Additional observations from a re-analysis of the deposited data

How the results depend on the processing

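Scaling by DESeq2 size factors left all 50 member ratios on the same side of 1 and of the 1.5-fold rule. With total counts 12 members newly passed 1.5-fold, 2 (Ctsc and Npc1) no longer did, and 6 without a call crossed 1. Of the 50 members, 15 were 1.5-fold higher and 0 lower with total counts (all genes 15.2% and 5.49%). With total counts without acinar markers, 14 were higher and 0 lower (all genes 14.5% and 5.74%). The median log2 ratio of the members was 0.31 and 0.29 under these scalings, that of the lysosomal members 0.47 and 0.45, and that of the autophagy members 0.24 and 0.22, with all genes at 0.20 and 0.18. An interval wholly beyond 1.5-fold left 0 higher and 0 lower (all genes 2.41% and 3.13%). At 1.5-fold a filter of 10 CPM left 3 higher and 1 lower (all genes 4.48% and 5.47%). An interval at the Bonferroni level left 2 higher and 1 lower (all genes 2.63% and 3.37%). No filter added 1 member lower at 2-fold (Vmp1), where 4.31% of 18886 genes were lower. The scaling offset sets the first of these shifts by construction. Depth limits members under about 100 counts. The ATG8 shares per kb were not run, because transcript lengths were not used here. No paired analysis was possible because each group has 1 library.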
